A study of Mus musculus with 24 samples.

Results

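B16-F1 is a mouse melanoma line that makes pigment, and the lines compared here are descendants of it that carry green fluorescent protein. B16F1-GFP-D, called D, is a line that the study recovered from mice after long dormancy of the tumour cells, which had been injected into vaccinated syngeneic mice. B16F1-GFP-DB#2, called DB#2, belongs to a later generation of dormant cells and was recovered from the brain. The comparison asked how the brain-derived line differed from the dormant line of the generation before it. It rests on 3 arrays of DB#2 and 4 arrays of D, 7 of the 24 arrays of the series, chosen by the line named in the labels. The other melanoma arrays, of the parental line M (3), DB#1 (4) and DB#3 (3), are given as levels beside the results.

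All lines were grown in culture without treatment, in DMEM with serum, before total RNA was taken. D and DB#2 are 1 line each, so that a difference between them is a difference between 2 cultured lines, not between many dormant tumours. The labels do not say whether the arrays of a line came from separate cultures, and p-values therefore measure only the spread between these samples, which may be technical. In bulk RNA, fewer cells of a type and less RNA per cell cannot be told apart.

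Interferons are secreted proteins that cells release when they sense viral or misplaced nucleic acid. Their receptors activate STAT proteins, of which STAT2 joins IRF9, and these switch on the interferon-stimulated genes, many of which block viruses, and IRF7 amplifies the loop. Interferon also raises the genes that load peptides on MHC class I, by which T cells recognise tumour cells. In melanoma this programme is known for its links to immune recognition. Many interferon-stimulated genes carry, near their start, a stretch with 2 copies of GAAA a pair of bases apart, to which IRF9 and its relatives bind.

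DB#2 carried higher levels of interferon-stimulated genes than D, and of the antiviral oligoadenylate synthetases, while 1 of 21 tested genes of MHC class I presentation was called. Promoters of several of the called genes hold the stretch described above. The fragments below are 100 bases each, from RefSeq promoter windows that run from 250 bases before to 50 bases after the start of the gene (GRCm38.p6), 5′ to 3′ on the strand of the gene. Capitals mark GAAA, any 2 bases and GAAA again, searched on both strands, so that TTTC copies mark a match on the opposite strand, and matches may overlap. The 6 are those called genes with a match that had the largest rise. Of the 4 genes tested and not called that hold the stretch, Gbp2 and Eif2ak2 are shown because they had the smallest log2 differences (0.064 and 0.32). The others were Rsad2 (0.55) and Ifit1 (1.26).
Igtp (chr11:58199482-58199581, + strand): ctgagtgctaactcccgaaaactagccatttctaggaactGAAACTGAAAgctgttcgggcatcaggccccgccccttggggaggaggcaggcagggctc
Irgm2 (chr11:58214873-58214972, + strand): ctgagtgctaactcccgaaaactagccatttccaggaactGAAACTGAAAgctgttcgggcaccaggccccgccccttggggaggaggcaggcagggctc
Oas1a (chr5:120907486-120907585, - strand): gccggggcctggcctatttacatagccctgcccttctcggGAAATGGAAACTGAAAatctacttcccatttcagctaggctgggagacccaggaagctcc
Oas1g (chr5:120887572-120887671, - strand): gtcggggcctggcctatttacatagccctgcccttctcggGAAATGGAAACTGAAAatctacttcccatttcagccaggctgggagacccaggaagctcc
Ddx58 (chr4:40239776-40239875, - strand): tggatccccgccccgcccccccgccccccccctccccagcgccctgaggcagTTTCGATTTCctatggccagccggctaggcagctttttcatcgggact
Gbp7 (chr3:142530243-142530342, + strand): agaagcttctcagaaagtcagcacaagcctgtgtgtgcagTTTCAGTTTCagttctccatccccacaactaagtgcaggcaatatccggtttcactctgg
Gbp2 (chr3:142620564-142620663, + strand): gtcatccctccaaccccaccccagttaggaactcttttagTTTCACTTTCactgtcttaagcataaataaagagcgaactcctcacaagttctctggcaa
Eif2ak2 (chr17:78882523-78882622, - strand): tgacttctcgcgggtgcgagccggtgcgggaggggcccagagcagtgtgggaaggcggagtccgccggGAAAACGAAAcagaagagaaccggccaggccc

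The Igtp and Irgm2 fragments differ at 2 of 100 bases, and so do those of Oas1a and Oas1g. The stretch lies in the windows of 1079 of 27025 genes (3.99%) when both strands are searched. Of the 35 interferon-stimulated and oligoadenylate synthetase genes called higher in DB#2, 27 have a window in the table and 18 of these hold the stretch (66.7%). Of the 17 tested and not called, 14 have a window and 4 hold it (28.6%). The windows of Irf7, Oas1f and Xaf1, which rose, do not hold these letters. A match describes the sequence and does not show a bound site.

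Levels are given as normalized log2 signal, which is log2 intensity less the 75th percentile on that array, so that a difference of 1 is a 2-fold difference. A gene was tested if it was well above background, in short read, on every array of DB#2 or of D. Calls were made below an adjusted p of 0.05 (limma's moderated test across all arrays, with Benjamini-Hochberg adjustment over all genes tested). The number tested was 20650, of which 1310 passed (6.34%), with 806 higher (3.9%) and 504 lower (2.44%) in DB#2, and 645 differed at least 2-fold. The median log2 difference over all genes tested was 0.035. With slide as a block 2367 genes were called. Replicate number as a block, fitted here on these 7 arrays only, left 244 calls, where the same 7 arrays without a block gave 300. A call lost with that block may thus be lost through the smaller number of arrays.

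The arrays were not of equal quality. On D replicate 3 89.9% of probes were well above background, against 43.6% on D replicate 1 and 50.4% to 53.3% on the other 5. Genes read on none of the other D arrays were brighter on D replicate 3 by a median of 2.64 on the log2 scale. Without D replicate 3 754 genes were called higher and 674 lower, and without D replicate 1 1324 and 725. Values without D replicate 3 are therefore given where they change a call.

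The 8 melanocyte markers were read on all 7 arrays, with a mean log2 signal of 6.68 to 7.58 on the D arrays and 7.29 to 7.50 on the DB#2 arrays. None was called (0 of 8, against 6.34% of all genes tested), a count too small to tell apart from that share. The list means of markers of other cells of the brain and of blood lay below 0, the 75th percentile of an array, in both lines, though single markers did not. The mean of the neuron list was -5.18 to -4.74 on the DB#2 arrays and -5.11 to -4.56 on the D arrays other than D replicate 3 (-2.27), and 5 of its 6 genes, Syt1, Rbfox3, Slc17a7, Gad1 and Stmn2, were read on no DB#2 array. The sixth, Snap25, was read on all 7 arrays, with a mean of 2.03 in D and 2.18 in DB#2. The endothelial list lay at -6.15 to -6.10 in DB#2, with 5 of 6 genes not read. The microglia and macrophage list lay at -4.30 to -3.83 in DB#2 and at -4.46 to -3.61 on those D arrays, with Aif1, P2ry12, C1qa and Ptprc not read in DB#2. The fibroblast and pericyte list lay at -4.54 to -4.28 in DB#2, at -5.20 to -4.84 on the D arrays other than D replicate 3, and at -3.63 on that array. Its genes Pdgfra, Lum and Rgs5 were not read in DB#2, Dcn was called higher, and Col1a1 differed by 1.09 (adjusted p 0.401, and 0.044 without D replicate 3, limma). In the astrocyte list 3 of 6 genes were tested and 2 were called higher, Gja1 by 2.61 and Aldh1l1 by 1.23, where 6.34% of all genes tested were called. The third, Gfap, was read on all 7 arrays and differed by 0.13 (adjusted p 0.861, limma). Slc1a2 and Slc1a3 were not read in DB#2. Aldh1l1 had a mean of 2.67 in D, 3.90 in DB#2 and 3.95 in M. It was called neither without D replicate 3 (adjusted p 0.090, limma) nor with replicate number as a block (adjusted p 0.159). The part of other cells in the results was not tested further.

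The interferon-stimulated gene list held 53 genes, of which 49 were found on the array and 43 were tested. In DB#2 29 of the 43 were called higher and 0 lower (67.4% called, against 6.34% of all genes tested). Of the 43, 28 did not overlap between the lines, against 12.6% of all genes tested. The median log2 difference of the list was 1.39. Its mean level was -0.13, -0.60, -0.41 and -0.63 on D replicates 1 to 4 and 0.81, 1.01 and 1.19 on DB#2 replicates 1 to 3, so that every DB#2 array lay above every D array. Without D replicate 3 29 were again called higher, and without D replicate 1 the median was 1.69. The replicate block left 11 calls, all higher. The list was written with earlier results of these data known, so its count is a description.

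Of the transcription factors in the list, Irf7, Irf9 and Stat2 rose, while Irf1 did not (-0.060). Irf7, the amplifier, read -0.67, -1.48, -1.97 and -1.70 in D and 1.27, 1.34 and 1.58 in DB#2. All DB#2 arrays lay above all D arrays, and the difference was 2.85 ± 0.25 (SE) on the log2 scale with an adjusted p of 1.19e-07 (limma). Its 2 probes gave 1.55 and 2.85. Irf9, the DNA-binding partner of STAT2, rose by 2.03 ± 0.18 (SE), and Stat2 by 1.30 ± 0.23 (SE). All 3 were without overlap between the lines. With replicate number as a block Stat2 was not called (adjusted p 0.055).

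The sensors of viral RNA and the regulators that follow them rose as well. Ddx58, which encodes the RNA sensor RIG-I, averaged -0.18 in D (SD 0.49, n = 4) and 2.70 in DB#2 (SD 0.19, n = 3), a 7.33-fold rise. Its 4 probes gave 2.51 to 2.87. Ifih1, the sensor MDA5, rose by 1.49, and Dhx58, the related LGP2, by 0.83. The ranges of Dhx58 overlapped, since D replicate 3 read -1.42 and DB#2 replicate 1 -1.83. With replicate number as a block Ifih1 (adjusted p 0.172) and Dhx58 (adjusted p 0.323) were not called.

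Usp18, which removes ISG15 from proteins and restrains the interferon receptor, read -2.34, -2.96, -3.56 and -3.14 in D and -0.16, 0.54 and 0.82 in DB#2, a 10.6-fold rise. Isg15 itself, a ubiquitin-like protein, rose by 1.55 ± 0.37 (SE). Its ranges overlapped, since D replicate 1 was as high as DB#2 replicate 2, and it was not called with replicate number as a block (adjusted p 0.379). Xaf1, a promoter of cell death that interferon induces, rose by 2.88, and Rtp4 by 2.72. Both were free of overlap.

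Among the interferon-induced GTPases, which attack intracellular parasites, the response was uneven. Igtp read -3.59, -4.12, -3.08 and -3.82 in D, where 2 of 4 arrays were above background, and -0.63, -0.0078 and 0.37 in DB#2. The difference, 3.56 ± 0.26 (SE; adjusted p 1.06e-08, limma), was the largest of the list. Irgm2 rose by 3.26 and Irgm1 by 0.82, the latter not called with replicate number as a block (adjusted p 0.230). Gbp7 was read on every DB#2 array and, in D, only on D replicate 3 (-1.61), which was above all DB#2 arrays. It was at least 2.08-fold higher in DB#2 (adjusted p 0.037, limma), and it was not called with replicate number as a block (adjusted p 0.365). Gbp3 rose by 1.75 (adjusted p 0.146 with the block), while Gbp2 differed by 0.064 ± 0.41 (SE) and Ifi47 by 0.18.

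The 14 genes of the list that were not called, named here after their values were seen, included well-known members. Irf1 differed by -0.060 ± 0.23 (SE), Ifit2 by 0.11 ± 0.21 (SE), Samhd1 by -0.0096 ± 0.13 (SE) and Cmpk2 by 0.0032 ± 0.28 (SE). Rsad2, the antiviral enzyme viperin, had a difference of 0.55 with no overlap between the lines and an adjusted p of 0.102 (limma). Ifit1 differed by 1.26 (adjusted p 0.066), with D replicate 1 at -1.82 inside the range of DB#2. The neighbours Ifit3 and Ifit3b, by contrast, were called, at 1.48 and 1.51, though not with replicate number as a block (adjusted p 0.241 and 0.276).

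The oligoadenylate synthetases make a short adenylate chain that sets off the decay of RNA. Of 9 tested members 6 rose and 0 fell (66.7% called, against 6.34% of all genes tested), with a median log2 difference of 2.60. The median was 0.95 with normexp background correction, 1.21 with no filter on dim probes and 1.68 with the median over the probes of a gene, and 3 members were called where every array of both lines had to be above background. Oas1a read 1.76, 0.54, -0.041 and 0.37 in D and 3.96, 4.19 and 4.43 in DB#2, a rise of 3.54 ± 0.28 (SE; adjusted p 3.75e-08, limma). Oas1f rose by 3.57 ± 0.28 (SE) and Oas1c by 2.60 ± 0.22 (SE). In DB#1 too Oas1f was called higher than D (1.35, adjusted p 0.013, limma). Oas1g, Oas2 and Oasl2 were read in D only on D replicate 3 and were at least 4.21-fold, 3.23-fold and 2.97-fold higher in DB#2. The 3 first named remained called with replicate number as a block, and the other 3 did not (adjusted p 0.163, 0.065 and 0.085). Oasl1 differed by 0.0057, with D replicates 1 and 3 near -0.02 and -0.16 and the other D arrays under -3. The Oas1 genes are close paralogs, and a probe of 1 may also bind transcripts of another.

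**Figure D1:**
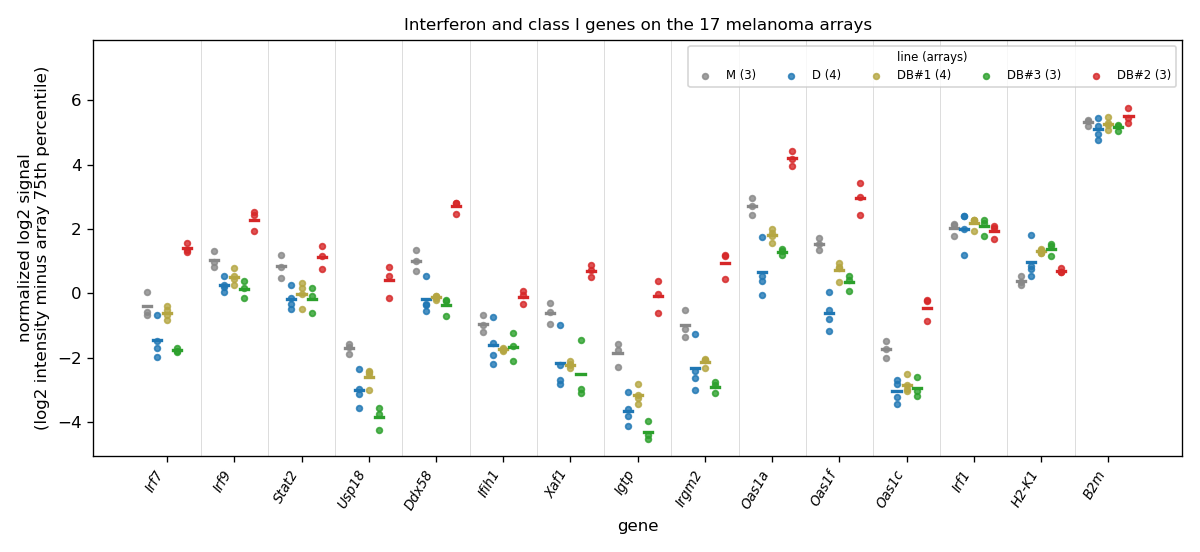
Normalized log2 signal (vertical axis) of 15 genes of the interferon pathway and of class I presentation on the 17 melanoma arrays, with 1 point per array, a bar at the mean of each line and colours for the lines. For Irf7, Ddx58, Usp18 and Igtp the 3 DB#2 points lie above all points of D, DB#1, DB#3 and M, while for Irf1 and B2m the lines overlap or lie close together. For H2-K1 the DB#2 points (0.66 to 0.79) lie within the range of D. They lie above M (0.24 to 0.55) and below DB#1 (1.24 to 1.39) and DB#3 (1.15 to 1.54).

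The other melanoma lines place these values. The mean level of the interferon-stimulated genes was -0.00059 to 0.27 on the M arrays, -0.37 to -0.26 on the DB#1 arrays and -0.70 to -0.42 on the DB#3 arrays, all below the 0.81 to 1.19 of DB#2. For Usp18 the mean was -1.71 in M, -2.60 in DB#1 and -3.86 in DB#3. Against the mean of DB#1 and DB#3, a contrast that holds no D array, 1518 of 21261 genes passed (7.14%), and DB#2 was higher for 790 (3.72%) and lower for 728 (3.42%). Of the interferon-stimulated genes 30 of 43 were called higher in that contrast and 0 lower, and of the oligoadenylate synthetases 6 of 9. Usp18 was higher by 3.63 and Irf7 by 2.59. Both contrasts share the DB#2 arrays, so that the second is not independent of the first.

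The receptors and kinases of the pathway were measured from a separate list. Of 21 tested genes 2 were higher and 1 lower (14.3% called, against 6.34% of all genes tested), with a median of 0.29. Ifngr1, which lies on chromosome 10 and encodes a chain of the interferon gamma receptor, rose by 0.81 ± 0.16 (SE). Its mean was 1.79 in DB#2 and 1.78 in M. Ikbke, a kinase that activates IRF3 and IRF7, rose by 0.60 ± 0.17 (SE), though the median over its probes was -0.052. Cgas, the sensor of cytosolic DNA, fell by 0.75 ± 0.18 (SE). None of the 3 was called with replicate number as a block (adjusted p 0.183, 0.449 and 0.266). Ifnar1 and Ifnar2, the chains of the type I receptor, differed by -0.019 and -0.065.

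Genes of MHC class I presentation were tested as 21 members, 13 of them on chromosome 17. H2-M3, a non-classical class I molecule, was the 1 called gene of the 21 (4.76%, against 6.34% of all genes tested). It was at least 2.54-fold higher in DB#2, and D was read for it on 1 of 4 arrays. H2-M3 was also called higher than D in DB#3 (1.71, adjusted p 0.031, limma). H2-K1, a classical class I heavy chain, read 1.80, 0.85, 0.53 and 0.74 in D and 0.66, 0.66 and 0.79 in DB#2, a difference of -0.28 ± 0.26 (SE; adjusted p 0.712, limma). B2m, the light chain, differed by 0.40 ± 0.22 (SE; adjusted p 0.383, limma), and the peptide transporter genes Tap1 and Tap2 by 0.32 each. The median of the 21 was 0.056, near the median of all genes, and 3 members had an unadjusted p under 0.05. Without D replicate 3 Psmb9, a subunit of the immunoproteasome, was also called (1.03, adjusted p 0.038). Nlrc5, which drives class I genes, differed by -0.79 (adjusted p 0.173).

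**Figure D2:**
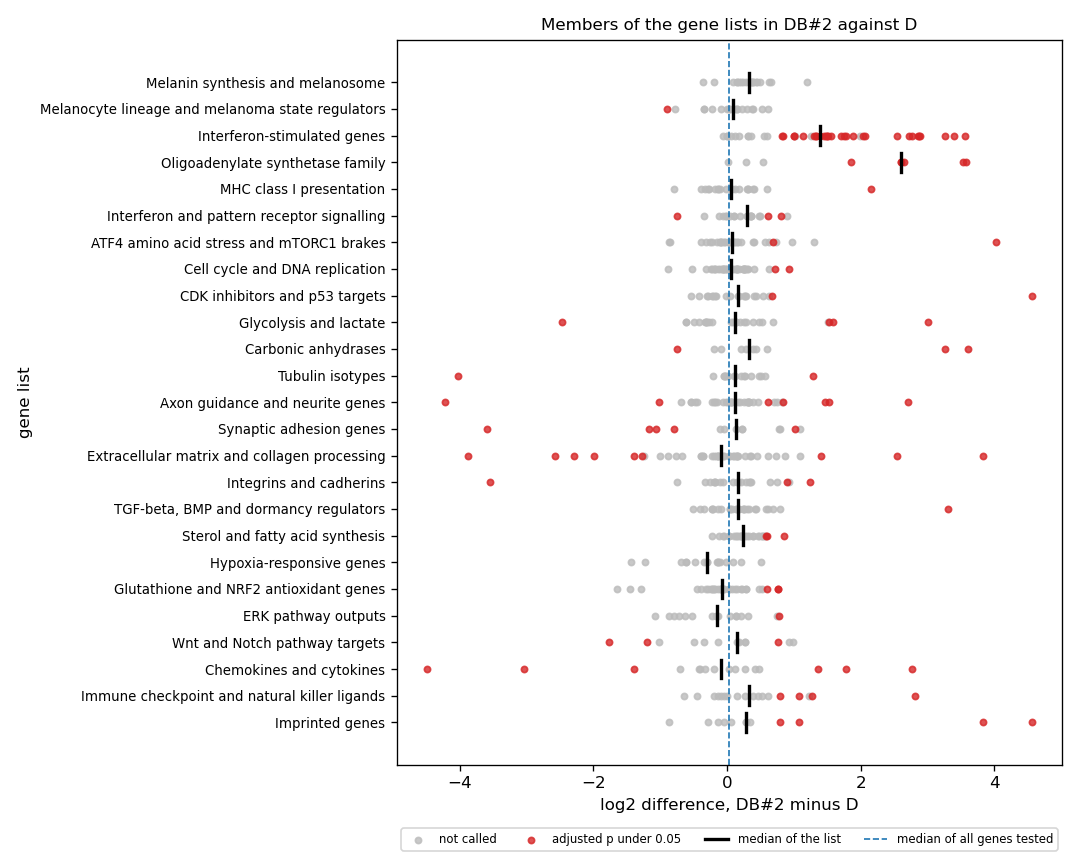
Log2 difference, DB#2 minus D (horizontal axis), of each tested member of 25 gene lists (vertical axis), with called genes in red, others in grey, a black bar at the median of each list and a dashed line at the median of all genes tested. Interferon-stimulated genes (median 1.39) and the oligoadenylate synthetase family (2.60) lie to the right, while class I presentation has a median of 0.056 with 1 called gene.

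Few pigment genes and regulators of the melanocyte lineage passed the test. Of the 21 melanin synthesis and melanosome genes 0 were called (limma), against 6.34% of all genes tested. Of the 21, 4 had an unadjusted p under 0.05, and 4 were called with slide as a block. Their median log2 difference was 0.33, and 0.19 without D replicate 3. Tyr, the rate-limiting enzyme of melanin synthesis, read 4.22, 3.60, 3.01 and 3.39 in D and 4.01, 3.84 and 3.81 in DB#2. Mitf, the master regulator of melanocytes, differed by 0.15 ± 0.29 (SE) and Sox10 by 0.041 ± 0.15 (SE). Of 18 tested lineage and state regulators 1 was called (5.56%, against 6.34% of all genes tested). This was Kit, the stem cell factor receptor, with a fall of 0.90 ± 0.21 (SE). Its adjusted p was 0.012, and 0.217 with replicate number as a block (limma).

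Growth genes also stood near the median. Of 39 cell cycle and replication genes 2 were called (5.13%, against 6.34% of all genes tested). Both were higher, Cdk2, on chromosome 10, by 0.93 and E2f8 by 0.72. Neither was called with replicate number as a block (adjusted p 0.262 and 0.234, limma). Mki67, the proliferation marker, differed by 0.26 ± 0.18 (SE). Among 21 inhibitors of cyclin-dependent kinases and p53 targets, Cdkn1c, which encodes the inhibitor p57, read -2.83, -4.62, -2.69 and -4.58 in D, where 2 arrays were above background, and 0.60, 1.15 and 0.87 in DB#2. This rise of 4.56 ± 0.48 (SE; adjusted p 1.82e-06, limma) was the largest in the list. Cdkn2c rose by 0.67 (adjusted p 0.298 with replicate number as a block). Cdkn1a differed by 0.041 ± 0.42 (SE), but its 2 probes gave -1.63 and 0.041. Cdkn2a was not read on any DB#2 array and in D only on D replicate 3, and was not tested.

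Icam2, an adhesion molecule of vessels and lymphocytes, read -1.67, -1.88, -1.44 and -1.79 in D and 1.75, 1.85 and 1.35 in DB#2, a rise of 3.34 ± 0.23 (SE; adjusted p 4.18e-09, limma). Lsp1, a leukocyte actin-binding protein, rose by 3.29 and Pla2g5, a secreted phospholipase, by 3.49. The 3 probes of Lsp1 gave 1.35 to 3.29 and the 2 of Pla2g5 1.68 and 3.49. Pla2g5 was also called higher than D in DB#1 (2.47, adjusted p 0.00019, limma) and DB#3 (1.98, adjusted p 0.0070), so its rise was not particular to DB#2. Icam2 was called higher than D in DB#1 as well (1.04, adjusted p 0.019, limma). Il18, a cytokine of the inflammasome, rose by 2.77 and Cd72, a B cell coreceptor, by 2.81. Of the macrophage and lymphocyte marker lists no gene was called (0 of 6 tested, against 6.34% of all genes tested). So few genes cannot be told apart from that share. Aif1, P2ry12, C1qa and Ptprc were read on no DB#2 array. Csf1r, Cd4 and Cd3e were read on all 7 arrays, at means of 1.54, 1.06 and 0.41 in DB#2 and 1.41, 1.04 and 0.50 in D. Tmem119, a microglia marker, differed by 1.15 without overlap between the lines (unadjusted p 0.019, adjusted p 0.159, limma). Its mean was -2.45 in DB#2 and -2.43 in M. Cd68 of the same list went the other way, by -1.15 with overlapping ranges (unadjusted p 0.0090, adjusted p 0.097, limma), and C1qb differed by -0.40. Cd72 stood at 1.24 in DB#1 and -0.56 in DB#3, and did not differ past the threshold between DB#2 and their mean (0.53, adjusted p 0.324).

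Ddit4l, an inhibitor of mTORC1 that responds to stress, rose the most among genes above background on all 7 arrays. It read -2.59, -3.77, -3.29 and -3.38 in D and 0.77, 0.95 and 0.59 in DB#2, 4.03 ± 0.34 (SE) higher with an adjusted p of 8.65e-08 (limma). Apart from Sesn1 on chromosome 10 (0.68, adjusted p 0.254 with replicate number as a block), it was the only called gene of 33 tested in the list of amino acid stress and mTORC1 brakes. The share called, 6.06%, was near the 6.34% of all genes tested. Rps6ka6, a kinase of the RSK family, was read on no D array and on every DB#2 array, at least 18.2-fold higher. Cfi, a protease that inactivates complement, was at least 9.56-fold and Hoxb7, a homeobox factor, at least 8.58-fold higher. For both the 1 D array above background was D replicate 3.

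Qpct, which forms pyroglutamate at the start of peptides, read -0.14, -0.51, -0.90 and -0.40 in D and -6.59, -4.76 and -6.24 in DB#2, where it was on no array above background. It was at least 15.7-fold lower (adjusted p 2.37e-09, limma). Aspg, an asparaginase, was at least 14.5-fold lower and Cx3cl1, the chemokine fractalkine, at least 10.2-fold. In DB#1 and DB#3 the mean of Qpct was 0.43 and 0.39 and that of Cx3cl1 -1.94 and -1.65, near D. The means in M were -1.40 for Qpct, -4.15 for Aspg and -2.45 for Cx3cl1.

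Tubb2b, a beta tubulin of neurons and neural crest cells, read 1.93, 1.78, 1.46 and 1.89 in D and -2.50, -2.38 and -1.91 in DB#2, a fall of 4.03 ± 0.20 (SE; adjusted p 7.96e-11, limma). Lrrc4b, a synaptic adhesion protein, fell by 3.59, Itgb5, the integrin beta 5 chain, by 3.54, and Chn2, a Rac GTPase-activating protein, by 3.46. Galnt10, which starts O-linked sugar chains, fell by 3.17, H2-DMb1, a chaperone of MHC class II, by 3.29, Megf10, an engulfment receptor, by 3.09, and Ctf1, a cytokine of the gp130 family, by 3.04. Every 1 of these 8 genes was read on all arrays of both lines without overlap, as the choice required. In M Ctf1 stood at -6.41, Megf10 at -3.55, H2-DMb1 at -2.77 and Tubb2b at -0.42. For these, in the same order, DB#2 (-3.72, -3.22, -3.79 and -2.26) was nearer to M than to D (-0.67, -0.12, -0.49 and 1.76). Lrrc4b, Itgb5, Chn2 and Galnt10 stood at 1.00, 1.85, 1.29 and 0.96 in M, which was nearer to D than to DB#2.

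**Figure D3:**
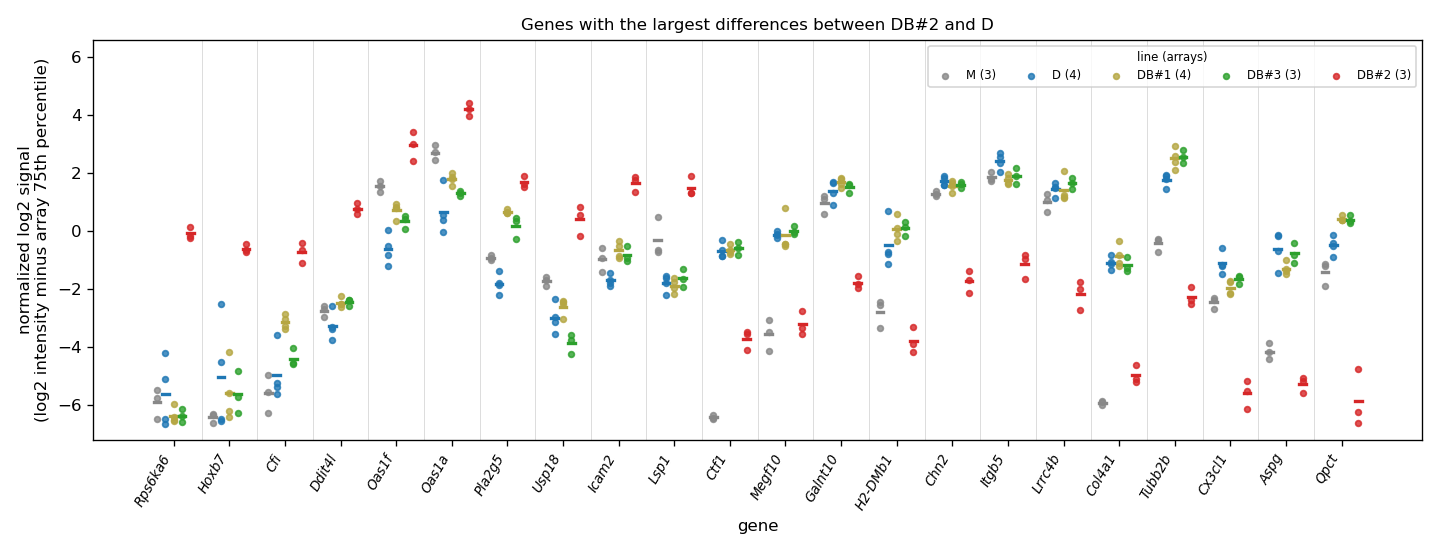
Normalized log2 signal (vertical axis) of 22 genes with the largest rises and falls between DB#2 and D, on the 17 melanoma arrays, with 1 point per array and a bar at the mean of each line. DB#2 lies above D for the genes on the left, from Rps6ka6 to Lsp1, and below it for those on the right, from Ctf1 to Qpct, while DB#1 and DB#3 lie near D for most of the genes that fell.

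Extracellular matrix genes moved in both directions, with 3 of 42 tested higher and 6 lower and a median of -0.098. The share called was 21.4%, against 6.34% of all genes tested. Col4a1, a chain of basement membrane collagen, read -1.08, -0.82, -1.35 and -1.12 in D and -5.20, -4.60 and -5.10 in DB#2, at least 10.3-fold lower. Its mean in M was -5.91. Lamb1, a laminin chain, fell by 2.58, Lama5, another, by 1.99, and Fkbp10, a chaperone of collagen, by 2.29, with M at -3.53. Rcn3, a calcium-binding protein of the endoplasmic reticulum, fell by 1.27 and Thbs1, an adhesive glycoprotein, by 1.40. Neither was called without D replicate 3 (adjusted p 0.052 and 0.086) or with replicate number as a block (adjusted p 0.121 and 0.140). Dcn, the proteoglycan decorin, was at least 6.76-fold higher in DB#2, where its arrays read -0.19, -1.36 and -2.39, and was not called with replicate number as a block (adjusted p 0.054). Hpse, which cuts heparan sulfate, read 1.14, 0.011, -0.34 and -0.15 in D and 3.29, 2.25 and 2.59 in DB#2, a rise of 2.55 ± 0.34 (SE), and stood at 2.60 ± 0.62 (SD, n = 3) in M. Emilin1, an elastic fibre glycoprotein, rose by 1.40 (adjusted p 0.059 with the block). Of 22 integrins and cadherins, Itga4 rose by 1.24 and Itga5 by 0.89, beside the fall of Itgb5, and neither rise was called with the block (adjusted p 0.078 and 0.367).

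Genes of axons and synapses were tested because the line came from the brain. Of 37 axon guidance and neurite genes 5 were higher and 2 lower, and of 13 synaptic adhesion genes 1 was higher and 4 were lower. The shares called were 18.9% and 38.5%, against 6.34% of all genes tested. Gap43, a growth cone protein, was at least 2.45-fold higher, read in D only on D replicate 3. Plxnc1, a semaphorin receptor on chromosome 10, rose by 1.52 ± 0.15 (SE). Dpysl5, a collapsin response mediator, was at least 9.03-fold lower, but its other probe gave -0.38. Cadm1 fell by 1.16 and Nlgn2, which organises inhibitory synapses, by 1.06. Of the tubulins Tubb3, the neuronal beta tubulin, rose by 1.28, opposite to Tubb2b. With replicate number as a block Gap43, Plxnc1, Cadm1, Nlgn2 and Tubb3 were not called (adjusted p 0.055 to 0.172).

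Of 27 glycolysis and lactate genes 3 rose and 1 fell (14.8% called, against 6.34% of all genes tested). Ldhd, the D-lactate dehydrogenase, rose by 3.01 ± 0.21 (SE) to 1.76, with D replicate 1 at -0.58 and the other D arrays between -1.50 and -1.41. It was also called higher than D in DB#1 (1.43, adjusted p 0.00038, limma) and DB#3 (1.64, adjusted p 0.00028). Pfkp, a phosphofructokinase, rose by 1.58 (adjusted p 0.055 with replicate number as a block), and Slc16a3, the lactate exporter MCT4, fell by 2.48. Of 10 carbonic anhydrases 3 were called (30%). Car2 rose by 3.61 and Car8 by 3.26, while Car14 fell by 0.75 (adjusted p 0.287 with the block, limma). In D Car2 was above background on 2 of 4 arrays and Car8 on 3 of 4, so these rises rest partly on D values near background. Of 29 sterol and fatty acid genes 3 were called (10.3%), all higher, among them Dhcr7 by 0.60 and Stard4 by 0.58. Of 32 glutathione and antioxidant genes 3 were called (9.38%), all higher, Gstt3 by 0.77, Mgst3 by 0.77 and Sod2 by 0.59. None of these 5 was called with replicate number as a block (adjusted p 0.271 to 0.391), and without D replicate 3 Mgst3 (adjusted p 0.069) and Sod2 (0.103) were not called.

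Of 27 genes of TGF-beta, BMP and dormancy regulation 1 was called (3.70%, against 6.34% of all genes tested). This was Gas6, a ligand of the TAM receptors, at -4.81, -4.08, -0.68 and -3.73 in D and -0.15, 0.22 and -0.15 in DB#2 (3.30 ± 0.66, SE). Its mean was -0.077 in DB#1 and -5.19 in DB#3. Of 16 chemokines and cytokines 3 rose and 3 fell, with Spp1, the matrix cytokine osteopontin, at 1.78 and Il15 at 1.36, the latter called neither without D replicate 3 (adjusted p 0.057) nor with the block (adjusted p 0.053). Of 18 checkpoint and natural killer ligands 4 rose, among them Raet1e, a ligand of NKG2D, by 1.28, Lgals9, galectin 9, by 1.07, and Cd274, which encodes PD-L1, by 0.78, the last with overlapping ranges and not called without D replicate 3 (adjusted p 0.060) or with the block (adjusted p 0.434). Of 13 Wnt and Notch targets Hes1 was at least 2.46-fold lower, Tcf7 fell by 1.19 and Fzd1 rose by 0.76. Of 17 outputs of ERK signalling 1 was called (5.88%, near the 6.34% of all genes tested). This was Phlda1, on chromosome 10, which rose by 0.78 (adjusted p 0.067 without D replicate 3, limma). Of 17 hypoxia-responsive genes 0 were called (3 at an unadjusted p under 0.05, limma), against 6.34% of all genes tested. Their median was -0.30, and -0.46 without D replicate 3, against 0.035 over all genes tested. Only 3 of the 17 had a difference above 0. Of 12 imprinted genes 4 rose, Cdkn1c, Dcn, Plagl1 (1.08) and Phlda2 (0.79). The shares called were 37.5% of chemokines and cytokines and 22.2% of checkpoint and natural killer ligands. For Wnt and Notch targets the share was 23.1% and for imprinted genes 33.3%. With replicate number as a block Gas6, Raet1e, Lgals9, Tcf7, Fzd1, Phlda1, Plagl1 and Phlda2 were not called (adjusted p 0.098 to 0.245).

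The called genes were not spread evenly over the chromosomes. Of 12967 tested genes placed by RefSeq, 5.21% were called higher and 2.84% lower, with a median of 0.061. On chromosome 10 127 of 637 genes were called higher (19.9%) and 3 lower, 87.9% of its genes had a difference above 0, and the median was 0.40. In 4 blocks of genes of equal size along the chromosome 44, 26, 25 and 32 genes were higher, with medians of 0.48, 0.32, 0.36 and 0.42. The higher genes had a median rise of 0.74, and 95 of the 127 differed by less than 2-fold. Among them Gja1, the gap junction protein connexin 43, was read on all 7 arrays and rose by 2.61. Of the genes named above with their lists, Ifngr1, Sesn1, Cdk2, Gstt3, Phlda1, Raet1e, Plagl1 and Plxnc1 also lie on this chromosome. They rose by 0.68 (Sesn1) to 1.52 (Plxnc1). Whether these rises are separate from the shift of the chromosome was not tested. Dcn, the estrogen receptor gene Esr1 and Glipr1 were read on at most 1 D array and were at least 6.76-fold, 4.64-fold and 2.56-fold higher in DB#2, and the 3 probes of Esr1 gave log2 differences of 1.21 to 3.82. Of the 52 tested interferon-stimulated and oligoadenylate synthetase genes 1, Stat2, lies on chromosome 10, and the 35 called ones came from 14 chromosomes.

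Chromosome 17 had the opposite balance, with 50 of 648 genes called lower (7.72%) and 10 higher and a median of -0.21, and so had chromosome 9, with 46 of 738 lower (6.23%), 12 higher and a median of -0.18. On the X chromosome 33 of 411 genes were higher and 1 lower, and on chromosome 4 70 of 841 were higher and 11 lower. The mean of the tested chromosome 10 genes minus that of all tested genes was 0.58, 0.44, 0.26 and 0.36 on the D arrays, 0.79, 0.85 and 0.71 on the DB#2 arrays and 0.63 to 0.76 on the M arrays, and 0.38 to 0.49 on those of DB#1 and DB#3. DB#2 thus lay with M, and D with the other brain-derived lines. For chromosome 17 the same measure was 0.63 to 0.97 in D, 0.71 to 0.79 in M and 0.50 to 0.57 in DB#2. These means are given as a description, with no test. The medians of chromosomes 10, 17 and 9 kept their sign under every setting tried, and without D replicate 3 chromosome 10 had 98 genes higher and 2 lower. With replicate number as a block 5 were higher and 0 lower, with a median of 0.41.

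**Figure D4:**
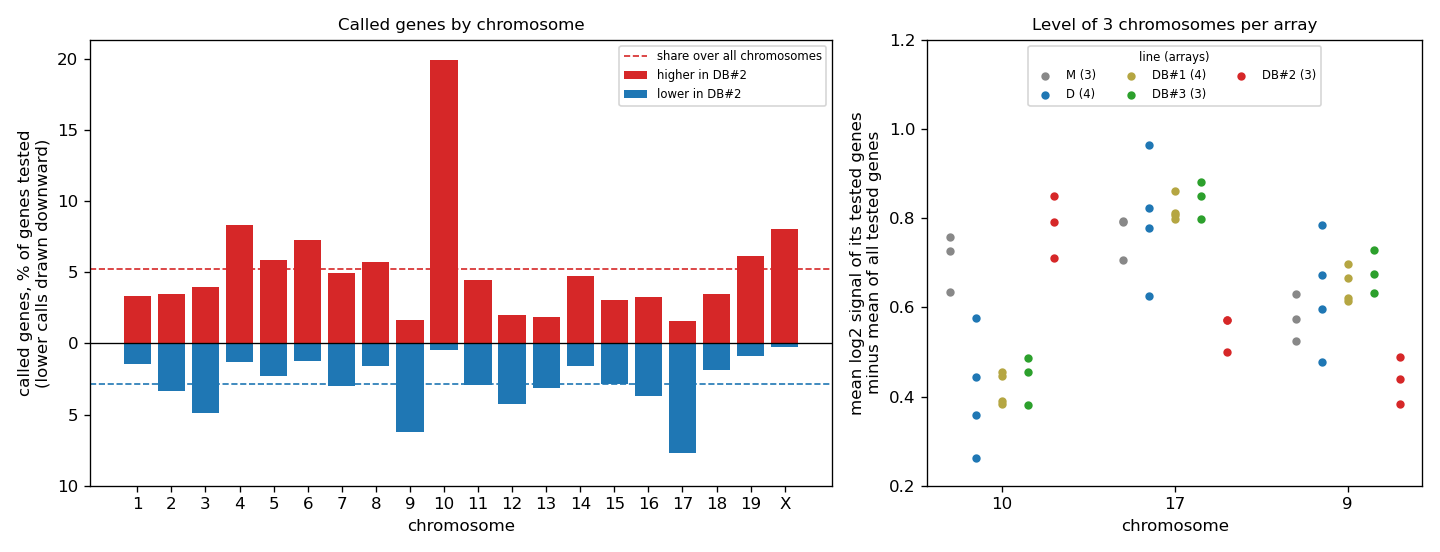
Left, genes called higher (red, upward) and lower (blue, downward) in DB#2 as a percentage of the genes tested on each chromosome, with dashed lines at the share over all chromosomes, 5.21% and 2.84%. Right, the mean log2 signal of the tested genes of chromosomes 10, 17 and 9 minus the mean of all tested genes, with 1 point per melanoma array. Chromosome 10 reaches 19.9% higher calls, and its DB#2 points (0.71 to 0.85) lie above all D points (0.26 to 0.58).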

How the data were processed

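Total RNA of 24 samples was hybridised to single-colour Agilent arrays labelled with cyanine 3. The deposited scanner tables, made by the authors with Agilent Feature Extraction 10.7.3.1, give an intensity per spot (gProcessedSignal) corrected for background and not scaled between arrays. The series table deposited by the authors holds the same intensity values (1511424 of 1511424 equal) and served as the unscaled setting. The authors then filtered and tested in GeneSpring, and the scaling used there is not given in the sources used here.

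Control and outlier spots were left out, which kept 56488 of 56605 probes. The log2 intensity minus the 75th percentile of the array was used, with the brightest probe per gene. Accessions were matched to RefSeq GRCm38.p6 for names and chromosome order (32917 probes, 22881 symbols). The array design names mm9, so array probes have no coordinates here. The promoter windows come from RefSeq. Lines were compared with limma 3.58.1 in R 4.3.3 (lmFit, eBayes) on all 24 arrays fitting 1 mean for each of the 7 lines, whose pooled spread has 17 residual degrees of freedom. The function was tested on simulated data. The number of arrays, 3 and 4, limits the precision.

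The members, the gene lists, the markers and the rule for named genes were chosen with earlier results of these data known. Named genes were the 8 largest rises and the 8 largest falls among called genes with a symbol, read on every array of both lines without overlap, the 4 highest bounds among rises and among falls, up to 3 called members per list, and 10 genes that define a list, some of which are not reported here. A bound is the mean of the bright line minus the mean, over arrays of the dim line, of the array's lowest signal well above background or, if higher, that of the probe, and D replicate 3's mark was not used for it.

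Whether replicate numbers pair the arrays was checked from the deviations from the line means over all tested genes: same-numbered D and DB#2 arrays correlated at 0.14, 0.76 and 0.50. The pair at 0.76 also shared a slide. Pairs with different numbers ran from -0.66 to 0.53, the highest being D replicate 4 with DB#2 replicate 3, on the same slide. These correlations do not settle whether the numbers mark a pairing, so values with the block are given where they change a call. The labels do not say what the numbers stand for. Only numbers 1 to 3 are shared, so D replicate 4 adds nothing to that fit. Arrays lay on 3 slides: D replicates 1 and 2 with DB#2 replicate 2, D replicate 3 with DB#2 replicate 1, and D replicate 4 with DB#2 replicate 3. Alternatives were other scalings and background corrections, filters, blocks, weights, thresholds and leaving out arrays. The normexp setting used spot medians, with an offset of 50, in place of means.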

Additional observations from a re-analysis of the deposited data

Results flagged for a closer look

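Among the D arrays, D replicate 1 stood far from the other 3 for Ldhd (-0.58), Car8 (-5.46) and Il18 (0.49), normalized log2 signal, by Dixon's test on the gap over the range. About 1 in 20 groups is picked out so by chance, and 75 genes were looked at. For Ldhd and Il18 it was the highest D array and lay below all DB#2 arrays.

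Of the 75 named genes 60 also differed between DB#2 and the mean of DB#1 and DB#3 at an adjusted p under 0.05 (limma). The largest of these was 0.0367. Over all genes tested in that contrast 7.14% passed. Most named genes were chosen because they were called against D, and both contrasts share the DB#2 arrays. The count is therefore a description and no independent support. The values are the log2 signal of DB#2 minus the mean of DB#1 and DB#3, unless given as a fold. Among the interferon genes these were Usp18 (3.63), Irgm2 (3.45), Oas1a (2.64), Irf7 (2.59), Oas1g (2.49), Oas1f (2.42), Ikbke (0.73), Ifngr1 (0.58) and Cgas (-0.64). Among other rises were Cdkn1c (5.28, with 1 of 4 DB#1 and 2 of 3 DB#3 arrays above background), Lsp1 (3.25), Ddit4l (3.23), Il18 (2.82), Car2 (2.76), Icam2 (2.39) and Car8 (1.95). Others were Plxnc1 (1.57), Ldhd (1.47), Pla2g5 (1.26), Pfkp (1.26), Itga4 (1.12), Raet1e (1.04), Tubb3 (1.00), Plagl1 (0.94), Cdk2 (0.93), Gstt3 (0.70), Phlda1 (0.67), Stard4 (0.57), Cdkn2c (0.54), Sesn1 (0.50), E2f8 (0.48) and Fzd1 (0.48). Lower in DB#2 were Tubb2b (-4.80), H2-DMb1 (-3.87), Lrrc4b (-3.68), Lamb1 (-3.40), Galnt10 (-3.37), Chn2 (-3.31), Megf10 (-3.15), Ctf1 (-3.10) and Itgb5 (-2.97). So were Slc16a3 (-2.10), Tcf7 (-1.87), Cadm1 (-1.19), Nlgn2 (-0.95), Kit (-0.90) and Car14 (-0.79).

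Where a gene was on no array of a dimmer line above background, only a bound can be given, against the mean of DB#1 and DB#3. Rps6ka6 was at least 18.8-fold, Dcn at least 8.003-fold and Gap43 at least 2.90-fold higher in DB#2, and were read in neither DB#1 nor DB#3. Hoxb7, read on 1 DB#1 array, was at least 12.7-fold higher. Igtp (at least 12.2-fold), Cfi (at least 7.90-fold) and Gas6 (at least 4.45-fold) were read on every DB#1 array and no DB#3 array. For Gas6 the mean was -0.077 in DB#1, -0.027 in DB#2 and -5.19 in DB#3, so its bound rests on DB#3. Gas6 was also called higher than D in DB#1 (3.25, adjusted p 0.011, limma). Read on no DB#2 array, and lower there by at least the fold given, were Qpct (29.2-fold), Col4a1 (10.8-fold), Aspg (10.8-fold), Cx3cl1 (6.34-fold), Dpysl5 (6.11-fold) and Hes1 (2.63-fold).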

How the results depend on the processing

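Against the 1310 calls between DB#2 and D, there were 300 with only the 7 arrays, 244 with replicate number as a block, 2367 with slide as a block, 2751 with array weights, 683 at an adjusted p under 0.01 and 645 at a fold of at least 2. With slide as a block and the 75th percentile over probes read on all arrays, chosen after seeing the data, there were 3054. Leaving out 1 array gave 757 (DB#2 replicate 3) to 2049 (D replicate 1), with 819 without DB#2 replicate 2. Higher and lower calls were 806 and 504, 885 and 1025 with the percentile over probes read on all arrays, 879 and 330 with no scaling. The 1518 calls against DB#1 and DB#3 became 2524 with slide as a block, 4925 with array weights, and 843 to 994 without 1 DB#2 array.

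The median of the interferon-stimulated genes was 1.08 with normexp and 1.32 to 1.69 without 1 array, and 13 were called with only the 7 arrays and 11 with the replicate block. The median of the oligoadenylate synthetases was 0.95 with normexp, 1.68 with the median over probes and 1.21 with no filter. Of these 3 were called when every D and DB#2 array had to be above background, with only the 7 arrays and with the replicate block.

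Signs turned for Ikbke, at -0.052 with the median over probes, and for 3 genes that were not called. Mitf was -0.080 without D replicate 3 and 0.40 without D replicate 1. Sox10 was -0.072 with quantile normalization, -0.028 with normexp, -0.047 with the percentile over probes read on all arrays, -0.053 with that and slide as a block, -0.092 without D replicate 3, -0.030 without DB#2 replicate 3, 0.11 without D replicate 4 and -0.093 without D replicates 1 and 3. Cdkn1a was -0.040 with quantile normalization, -0.046 with the percentile over probes read on all arrays, -0.80 with the median over probes, -0.050 with the replicate block and without D replicate 4, -0.27 without D replicate 3, 0.48 without D replicate 1, -0.021 without DB#2 replicate 1 and -0.048 without DB#2 replicate 2. The causes were not tested.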
